A study of Mus musculus with 15 samples.

Results

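The genes described here are the transcriptional end of the Hippo pathway: the co-activators Yap1 and Wwtr1 (which encodes TAZ), their DNA-binding partners Tead1, Tead2, Tead3 and Tead4, and 4 genes often used as a readout of their activity, Ankrd1, Amotl2, Lats2 and Ccn1 (formerly Cyr61). They were chosen by name, with no threshold on a measured value but with earlier results of these data known, and all 10 were found among the 43629 genes of the count table. RNA sequencing was done on organoids, epithelial cultures grown in Matrigel from crypts of the proximal small intestine of mice of mixed C57B6/129 strain. WT comprised 5 libraries, of which 4 came from Apc flox/flox lines numbered 1, 2, 5 and 6 (both Apc alleles floxed and undeleted) and 1, called naive, from cells that carried the dox-inducible Cas9 system but had not been given doxycycline; all 5 were kept in ENR medium, which contains RSPO1. Apc comprised the same 4 lines after deletion of both floxed alleles (Apc delta/delta), kept in EN medium, which lacks RSPO1. P-Rspo3 comprised 4 libraries (15d, 4d, M and F) of organoids in which doxycycline-induced Cas9 had joined Ptprk to Rspo3 by an inversion; these were mixed populations selected in EN medium. The medium thus differed between WT and both mutant groups, and its effect cannot be told apart from that of the genotype. P-Rspo3 also differed in line of origin from the 4 WT libraries of Apc flox/flox lines. In P-Rspo3 against WT, origin, medium and fusion therefore cannot be told apart. Apc and P-Rspo3 shared a medium but not a line of origin. The age of the animals was not given in the sources used here, and nothing says that the libraries of a group came from separate animals, so p-values measure the spread between these libraries.

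In the Hippo pathway, the kinases STK3 and STK4 with their adaptor SAV1 activate the kinases LATS1 and LATS2, which phosphorylate YAP and TAZ and hold them in the cytoplasm. When the kinases are inactive, YAP and TAZ enter the nucleus and bind TEAD factors, which sit on DNA at a short motif and switch on genes for growth, adhesion and matrix. In the intestine YAP is best known for its part in regeneration after injury and in the growth of Apc-mutant epithelium. Several targets, among them Lats2 and Amotl2, encode proteins that restrain YAP and TAZ, so that the pathway feeds back on itself. RNA levels do not show phosphorylation or location of either co-activator.

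The motif to which TEAD factors bind contains GGAATG. The promoters of these genes are shown because 7 of the 10 were called higher in Apc against WT in the comparison that follows. Yap1 and Tead3, which were not called, and Ankrd1, which was not in the main test, are shown beside them. RefSeq promoter windows (GRCm38.p6), each running from 250 bases before to 50 bases after a transcript's start, were found for 8 of the 10 genes; Tead1 and Tead4 had none. GGAATG or its reverse complement CATTCC, searched on both strands, was present in at least 1 window of 7 of these 8 genes (87.5%) and of 16.6% of the 27025 genes with a window. It was present in 14.7% of all 32851 windows. The 8 genes were chosen by name, the readout genes as known targets, so these shares describe the sequences and are no test. Of the 7 genes with a match, only Wwtr1, Amotl2, Lats2 and Ccn1 were called higher in Apc against WT. A window of Tead2 held no match. Stretches of 30 bases around the match, 5′ to 3′ on the gene's own strand with the match in capitals, are given for both co-activators, the 4 targets and Tead3.
Ccn1, chr3:145650071-145650100, minus strand: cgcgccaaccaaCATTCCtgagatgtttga
Ankrd1 upstream match, chr19:36120037-36120066, minus strand: gtcactgccaaaGGAATGaccctctcacat
Ankrd1 nearer match, chr19:36119950-36119979, minus strand: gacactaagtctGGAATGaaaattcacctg
Amotl2, chr9:102717727-102717756, plus strand: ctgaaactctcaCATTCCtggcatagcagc
Lats2, chr14:57746102-57746131, minus strand: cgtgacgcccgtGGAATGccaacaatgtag
Yap1, chr9:8004720-8004749, minus strand: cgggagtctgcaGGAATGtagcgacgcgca
Wwtr1, chr3:57576029-57576058, minus strand: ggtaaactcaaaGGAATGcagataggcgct
Tead3 match after the start, chr17:28350581-28350610, minus strand: aggtaagcccggGGAATGcaactcggaggc
Tead3 distal match, chr17:28350970-28350999, minus strand: gacgacgagcgaGGAATGgggtgcgcggga
Counted from the start site of its window, with bases before it negative, the first base of the match lay at -103 in Ccn1, at -210 and -123 in Ankrd1, at -65 in Amotl2 and at 5 in Lats2. For Lats2 this start site lay well inside the annotated gene, which runs from 57689662 to 57758388. The other Lats2 window held no match. Tead3 had the most matches, 4 over its windows. They lay at 3, -114 and -123 from the same start site and at -182 from another start site further upstream. Tead3 was nevertheless not called in any comparison, and Tead2, which rose in Apc, had no match. A letter match describes the sequence and does not show that the site is bound in these cells.

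Library depth was similar across groups, with 28902729 to 35528495 counts per library. The P-Rspo3 libraries held 539 to 1079 counts of Rspo3, the Apc libraries 7 to 57 and WT at most 1. Apc itself had 4046 to 6810 counts in WT and 9265 to 10953 in the Apc libraries, but a count over the whole gene does not resolve the deleted part and so does not check the deletion. Epithelial RNA dominated every library: the summed level of 12 epithelial markers, in FPKM (a level corrected for gene length and library depth), was 3715 to 5724 in WT, 2519 to 2823 in Apc and 3858 to 4603 in P-Rspo3. Within that list, the enterocyte gene Alpi, the goblet cell gene Muc2, the stem cell gene Olfm4, the Paneth cell gene Lyz1 and the brush border gene Vil1 fell in Apc against WT, while Lgr5 and Krt18 rose. In such bulk RNA, fewer cells of a type and less RNA per cell cannot be told apart.

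The 10 genes spanned a wide range of levels in WT organoids. Yap1 was the most abundant, at 23.2 FPKM ± 2.32 (SD, n = 5), and did not overlap the next gene. Tead3 (9.83 ± 0.981), Tead2 (8.06 ± 1.92) and Tead1 (5.24 ± 1.24) followed, each overlapping its neighbour. Amotl2, Ccn1, Lats2, Wwtr1 and Tead4 formed a low group with means from 1.95 down to 0.374 FPKM, in which neighbours in the order again overlapped. Ankrd1 was at 0 in all 5 WT libraries. WT organoids therefore held RNA of both co-activators in very unequal amounts, with Wwtr1 at 2.62% ± 0.689 (SD, n = 5) of their summed FPKM.

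**Figure D1:**
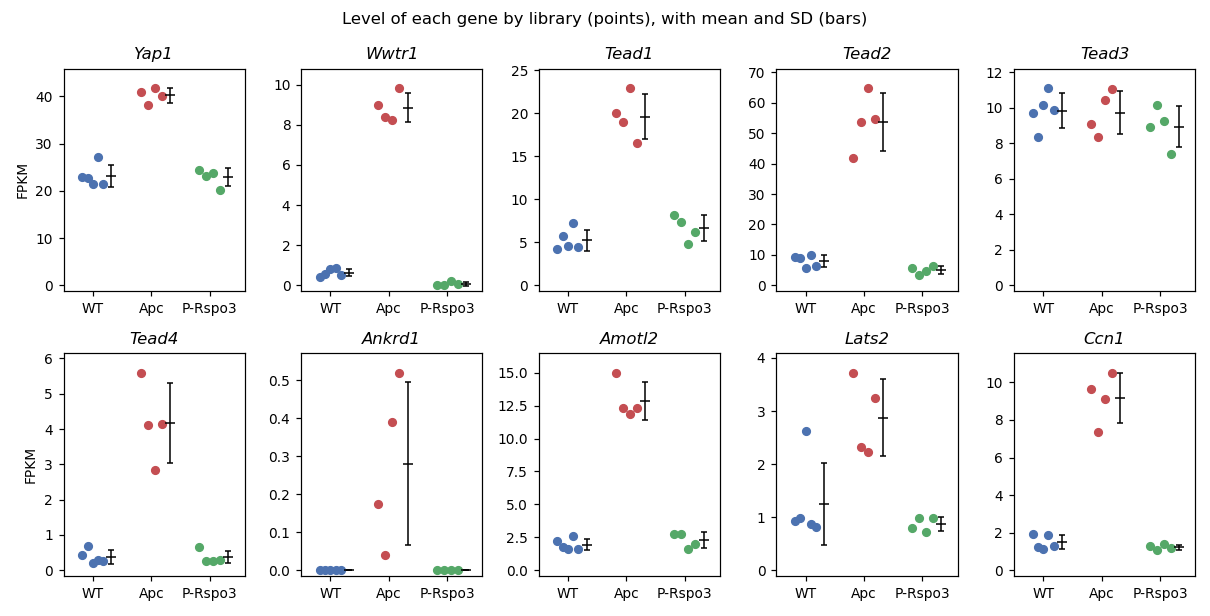
FPKM (linear axis, scaled for each gene) of the 10 genes in WT (5 libraries), Apc (4) and P-Rspo3 (4); points are libraries and bars give the mean and SD. The 4 Apc points lie above every WT point in 8 panels; Tead3 overlaps between the groups, and in Lats2 the WT library of line 5, at 2.62, lies inside the Apc range of 2.22 to 3.71.

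The first comparison asked what loss of Apc did to these genes. Apc organoids had 2.71- to 11.7-fold more RNA of 7 of the 9 genes that could be tested: the co-activator Wwtr1, the DNA-binding factors Tead1, Tead2 and Tead4, and the targets Amotl2, Lats2 and Ccn1 rose, and none fell. Yap1 was higher by a smaller step and Tead3 did not change detectably. Tests were run with edgeR's quasi-likelihood test across 16749 genes, and a gene was called when its Benjamini-Hochberg adjusted p was under 0.05 and its absolute log2 fold change above 1. By this rule 12.2% of all genes tested were called higher and 14.1% lower in Apc, and the median log2 fold change over all of them was 0.00. The median over the 9 members was 2.35, and each of the 9 passed the low-level filter in WT alone and in Apc alone. Of the members, 1 had an unadjusted p under 0.05 in the lower direction (Tead3), and DESeq2 likewise called 7 higher and none lower.

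Wwtr1 showed the largest difference among the tested members. In WT it had 69, 84, 117, 147 and 80 counts in lines 1, 2, 5, 6 and naive, and in Apc 1580, 1296, 1362 and 1796 in lines 1, 2, 5 and 6. The lowest Apc library thus held several times more than the highest WT library. The log2 fold change was 3.52 (SE 0.19, edgeR adjusted p = 1.3e-07), and Wwtr1 went from 2.62% to 18.1% ± 1.32 (SD, n = 4) of the summed FPKM of both co-activators. TAZ is the paralogue of YAP and binds the same TEAD partners.

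Yap1 was already abundant in WT and moved less. Its FPKM was 23.0, 22.7, 21.5, 27.2 and 21.6 in WT lines 1, 2, 5, 6 and naive, and 41.0, 38.1, 41.7 and 40.1 in Apc lines 1, 2, 5 and 6. The groups did not overlap, and the log2 fold change on counts was 0.47 (SE 0.06, edgeR adjusted p = 8.1e-05), below the fold threshold, so Yap1 was not called. The size of the step depended on scale: mean CPM (counts scaled to library size, with TMM factors) was 1.40-fold higher in Apc, and the alternatives, which include fits on FPKM, ran from 0.45 to 0.80 on the log2 scale.

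The TEAD genes did not move as a block. Tead1 had 1397, 1553, 1246, 2230 and 1224 counts in the WT libraries (lines 1, 2, 5, 6 and naive) and 6159, 5377, 6652 and 5517 in the Apc libraries (lines 1, 2, 5 and 6), a log2 fold change of 1.57 (SE 0.13, edgeR adjusted p = 2.1e-06). Tead2 had 466, 329, 235, 563 and 246 counts in WT and 1985, 2269, 2894 and 2642 in Apc, a log2 fold change of 2.37 (SE 0.20, edgeR adjusted p = 3.1e-06). Both were separated completely between the groups. Tead4, the TEAD gene with the least RNA in WT, had 54, 64, 24, 36 and 29 counts there and 696, 449, 335 and 550 in Apc, a log2 fold change of 3.20 (SE 0.31, edgeR adjusted p = 6.9e-06). Tead3 was the exception among the 4. It had 960, 829, 888, 1099 and 796 counts in WT and 1062, 913, 1075 and 1248 in Apc, and its log2 fold change of -0.17 (SE 0.08) did not pass (edgeR adjusted p = 0.077; 0.0458 to 0.894 over 22 alternatives, with a log2 fold change of -0.21 to -0.02).

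These unequal steps changed the make-up of the TEAD pool. The summed FPKM of the 4 genes was 23.5 ± 3.20 (SD, n = 5) in WT and 87.2 ± 10.2 (SD, n = 4) in Apc. Tead3 made up 42.3% of that sum in WT (35.1 to 49.4% over libraries) and 11.2% in Apc (9.82 to 12.8%). Tead2 went the other way, from 34.0% (27.4 to 39.2%) to 61.3% (54.6 to 64.2%). Tead1 held a like share in both, 22.1% and 22.6%, and Tead4 went from 1.59% to 4.94%. In the Apc libraries Tead2 thus had the highest mean level of all 10 genes, 53.7 FPKM ± 9.44 (SD, n = 4), although its range overlapped that of Yap1 (40.2 ± 1.57). Shares of plain counts, which are not corrected for length, put Tead1 first in every group (53.3% in WT, 59.5% in Apc), with Tead2 at 12.6% and 24.6%, so the order of the TEAD genes within a group rests on the length correction while the direction of the Tead2 and Tead3 shares between Apc and WT does not.

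**Figure D2:**
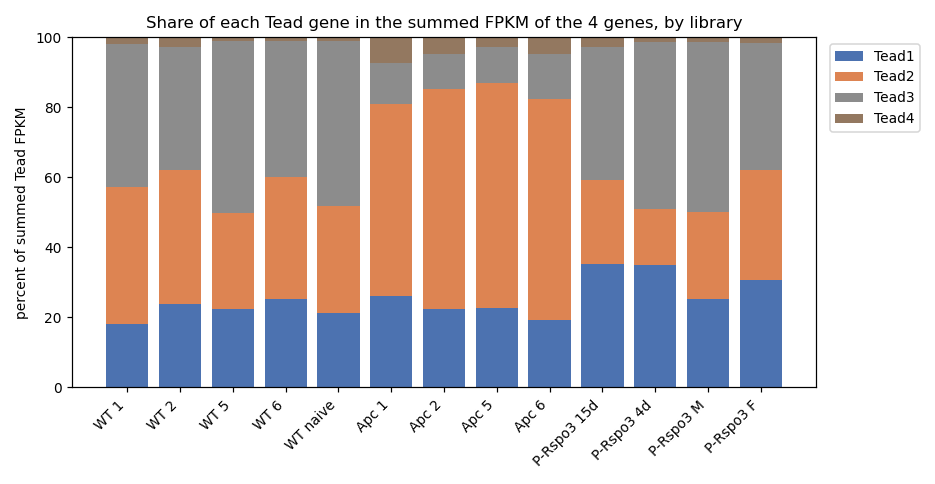
Stacked bars show, for each of 13 libraries, the percentage of the summed FPKM of the 4 Tead genes that each contributed. Tead2 takes 54.6 to 64.2% in the 4 Apc libraries, against 27.4 to 39.2% in WT and 16.1 to 31.3% in P-Rspo3.

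The 4 readout genes were all higher in the Apc libraries. Amotl2, an angiomotin family protein that binds YAP and TAZ, had 292, 286, 211, 296 and 184 counts in WT and 2279, 1670, 2008 and 1881 in Apc, a log2 fold change of 2.55 (SE 0.13, edgeR adjusted p = 9.8e-08). Ccn1, a secreted matrix protein and long-used YAP target, had 158, 92, 85, 168 and 99 counts in WT and 865, 589, 774 and 981 in Apc, a log2 fold change of 2.35 (SE 0.18, edgeR adjusted p = 1.3e-06). In neither gene did the groups overlap. Lats2, the kinase that phosphorylates YAP and TAZ and is itself a target, had 123, 135, 177, 152 and 118 counts in WT and 601, 416, 430 and 571 in Apc, a log2 fold change of 1.42 (SE 0.17, edgeR adjusted p = 4.0e-05). Its counts did not overlap, but its FPKM did, because the WT library of line 5 was at 2.62 FPKM against 0.816 to 0.977 in the other WT libraries; limma on log2(FPKM + 1) gave 0.82 (adjusted p = 0.00751), below the fold threshold.

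Ankrd1, an ankyrin-repeat protein of muscle and stressed epithelium that is one of the most used YAP targets, was seen only in Apc libraries among these 13. It had 18, 3, 34 and 50 counts in Apc lines 1, 2, 5 and 6 and 0 in all 5 WT and all 4 P-Rspo3 libraries. Its level stayed low, at 0.281 FPKM ± 0.215 (SD, n = 4), and line 2 was at the floor of 3 counts per library under which a gene is read as not detectable. Against a floor of 3 counts per library in WT, mean CPM was at least 6.45-fold higher in Apc. Because fewer than 4 libraries reached 0.1 FPKM, the gene was not in the main test; with no filter, edgeR gave an adjusted p of 0.00075 over 26170 genes.

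Each Apc library could also be set against the WT library of its own line. On the scale log2(CPM + 1), 9 of the 10 genes were higher in Apc in 4 of 4 lines, and Tead3 was lower in 4 of 4 lines, by 0.09 to 0.22. The mean within-line difference was 3.19 (SD 0.37) for Wwtr1, 2.50 (SD 0.35) for Tead4, 2.37 (SD 0.23) for Amotl2 and 2.10 (SD 0.19) for Ccn1. Lines were not equal in every gene: the Tead2 difference ranged from 1.68 in line 1 to 2.98 in line 5, and that of Lats2 from 0.70 in line 5 to 1.71 in line 1. On this scale the small Ankrd1 values are compressed by the added 1, with differences from 0.12 in line 2 to 1.15 in line 6.

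**Figure D3:**
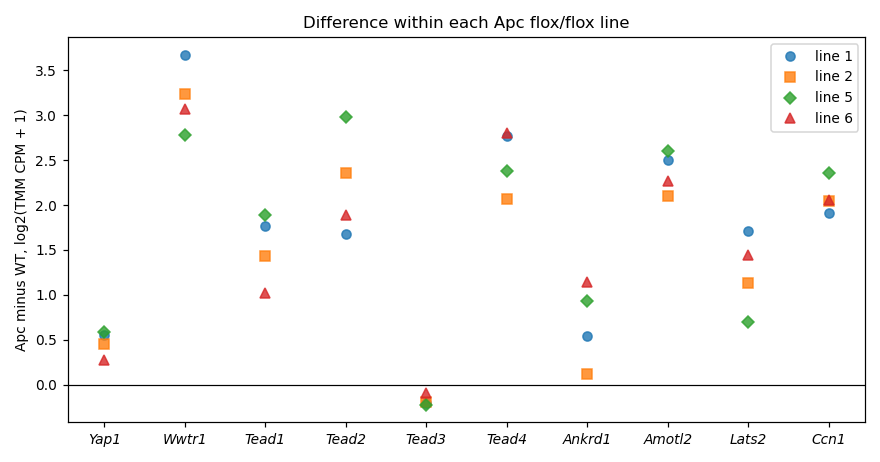
For each gene, symbols give the Apc library minus the WT library of the same line on the scale log2(CPM + 1), for lines 1, 2, 5 and 6. All symbols lie above 0 except those of Tead3, which lie between -0.22 and -0.09.

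The second comparison asked whether the Ptprk-Rspo3 fusion, which makes the epithelium produce its own RSPO3, moved the same genes. None of the 9 tested members was called in P-Rspo3 against WT, and Ankrd1 was at 0 counts in all libraries of both groups. edgeR found an unadjusted p under 0.05 in 2 of them (Wwtr1 and Tead3, both lower), limma on either FPKM scale called none, and DESeq2 called 1, Wwtr1. Over all genes 0.00625% of 15992 were called, that is 1 gene, and 2159 had an unadjusted p under 0.05. This count depended on the setting: 266 genes were called without the naive library, 228 with DESeq2 and 74 with all 3 groups in 1 fit, and members called were 0, 1 and 1. The median log2 fold change was -0.14 over the 9 members and 0.00 over all genes tested. P-Rspo3 and Apc were set against the same WT libraries, so the values of these comparisons are not independent.

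Yap1 had 3468, 3114, 3470 and 2770 counts in 15d, 4d, M and F, against 2870 to 4272 in WT. Only F lay below that range, and the log2 fold change was -0.05 (SE 0.07, edgeR adjusted p = 0.815). The TEAD genes gave log2 fold changes of 0.28 (SE 0.15) for Tead1, -0.57 (SE 0.29) for Tead2, -0.22 (SE 0.08) for Tead3 and -0.01 (SE 0.37) for Tead4. Among the readout genes the values were 0.14 (SE 0.17) for Amotl2, -0.14 (SE 0.26) for Lats2 and -0.29 (SE 0.19) for Ccn1. Of the 9 tested genes, all but Wwtr1 overlapped with WT in FPKM. For Tead4 the sign carries no information: it turned under 9 of 20 alternatives, and the 15d library, at 0.649 FPKM, stood above 0.274 to 0.304 in the other 3.

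Wwtr1 was the member that stood apart in P-Rspo3, in the direction opposite to Apc. It had 1, 3, 35 and 10 counts in 15d, 4d, M and F against 69 to 147 in WT, so that the groups did not overlap. Low Wwtr1 was not confined to P-Rspo3. Of the libraries left ungrouped for conflicting labels, LIPO, dox-naive by its genotype label, had 23 counts, inside the P-Rspo3 range. The log2 fold change was -3.01 (SE 0.69), and it did not pass the main test (edgeR adjusted p = 0.124; 0.000577 to 0.344 over 20 alternatives). Wwtr1 entered that test through the WT libraries alone, the group in which it was higher. The call depended on the setting. Without the M library the log2 fold change was -4.34 with an edgeR adjusted p of 0.0497, and with M kept Wwtr1 was called by DESeq2 (-3.02, adjusted p = 0.000577) and by edgeR with all 3 groups in 1 fit (-3.01, adjusted p = 0.0341). Of the P-Rspo3 libraries, 15d and 4d were at or under the floor of 3 counts.

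**Figure D4:**
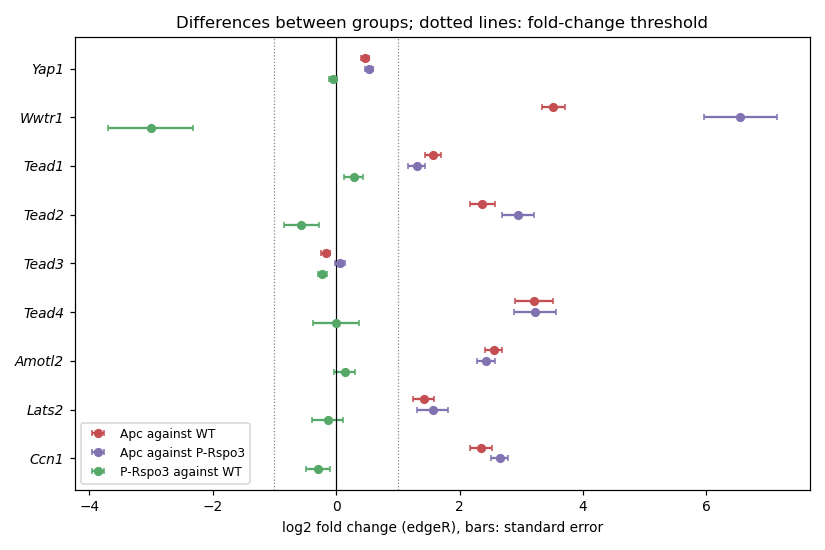
Points give the edgeR log2 fold change and bars its standard error for the 9 tested genes in Apc against WT, Apc against P-Rspo3 and P-Rspo3 against WT; dotted lines mark the fold threshold. Apc points lie to the right of 1 for 7 genes, while P-Rspo3 against WT lies between -0.57 and 0.28 for all but Wwtr1, at -3.01.

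Apc and P-Rspo3, which shared EN medium, were then compared directly. In this comparison, which uses the same Apc libraries as the first, 7 of the 9 tested members were called higher in Apc and none lower, where 13.4% of 16456 genes tested were called higher and 13.3% lower. Wwtr1 had the largest difference, 1296 to 1796 counts in Apc against 1 to 35 in P-Rspo3, a log2 fold change of 6.55 (SE 0.59, edgeR adjusted p = 1.7e-05); it entered this test through the Apc libraries alone. The other 6 had log2 fold changes of 1.30 (SE 0.14) for Tead1, 1.57 (SE 0.25) for Lats2, 2.43 (SE 0.14) for Amotl2, 2.65 (SE 0.14) for Ccn1, 2.95 (SE 0.26) for Tead2 and 3.22 (SE 0.34) for Tead4, with edgeR adjusted p from 8.8e-07 to 0.00057. Yap1 gave 0.53 (SE 0.06, edgeR adjusted p = 6.9e-05), again below the fold threshold, and Tead3 gave 0.07 (SE 0.08, edgeR adjusted p = 0.517). In P-Rspo3 the TEAD sum was 21.0 FPKM ± 1.85 (SD, n = 4), with Tead3 at 42.7%, Tead1 at 31.4% and Tead2 at 24.2%. No member was lower in this comparison at an unadjusted p under 0.05, and with no filter Ankrd1 had an adjusted p of 0.0022.

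Beside these genes, 31 genes of the Hippo pathway, among them cofactors of TEAD factors, were examined, of which Lats2 and Amotl2 are members already described. In Apc against WT 28 were tested, 11 rose and none fell, where 12.2% of all genes tested were called higher and 14.1% lower. The median log2 fold change was 0.59. In the lower direction 3 had an edgeR unadjusted p under 0.05, and DESeq2 gave the same counts. Of the 11, Amotl1 and Vgll3 reached the low-level filter in the Apc libraries alone. Amotl1, a second angiomotin protein, went from 0 to 0.122 FPKM in WT to 2.14 to 5.99 in Apc (log2 fold change 8.48, SE 0.46, edgeR adjusted p = 1.3e-07). Ptpn14, a phosphatase that holds YAP in the cytoplasm, went from 0.0558 to 0.249 FPKM to 8.99 to 12.5 (log2 fold change 5.83, SE 0.33, edgeR adjusted p = 1.5e-07). Vgll3, a cofactor that binds TEAD factors, had at most 3 counts in every WT library and was at least 18.6-fold higher in Apc. Wwc2, which activates LATS kinases, went from 0.309 to 0.679 FPKM to 5.49 to 7.86; Ajuba, a LIM protein that binds LATS kinases, from 1.22 to 2.24 to 18.7 to 27.97; and Frmd6, a FERM-domain adaptor, from 0.558 to 0.900 to 5.17 to 7.10.

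Of the kinase cassette with Nf2, 2 of 8 genes were called higher in Apc, Stk3 and Lats2, and none lower. Over all genes tested 12.2% were called higher and 14.1% lower. Stk3 rose, from 4.89 FPKM ± 0.395 (SD, n = 5) to 14.2 ± 0.774 (SD, n = 4), with a log2 fold change on counts of 1.23 (SE 0.07, edgeR adjusted p = 2.1e-07). Its paralogue Stk4 gave 0.12 (SE 0.07, edgeR adjusted p = 0.172) and the adaptor Sav1 0.36 (SE 0.08, edgeR adjusted p = 0.0022). Lats2 rose, as above, whereas its paralogue Lats1 gave 0.01 (SE 0.08, edgeR adjusted p = 0.942). Mob1b, a LATS co-activator, gave 0.01 (SE 0.07, edgeR adjusted p = 0.943). Mob1a gave -0.16 (SE 0.06, edgeR adjusted p = 0.031) and the upstream regulator Nf2 -0.26 (SE 0.05, edgeR adjusted p = 0.0018). In CPM every Apc library lay below every WT library for both, short of the fold threshold. The sign of Mob1a and Nf2 turns on FPKM, where their Apc means are above those of WT (50.4 against 46.1, and 25.6 against 24.3). In P-Rspo3 against WT none of 26 tested genes of this list was called, 3 had an unadjusted p under 0.05, DESeq2 and limma called none, and the median was 0.04. In Apc against P-Rspo3 10 of 28 were called higher and none lower, where 13.4% of all genes tested were called higher and 13.3% lower. Of the 10, 3 passed the low-level filter through Apc alone. In the lower direction 3 had an edgeR unadjusted p under 0.05. The median log2 fold change was 0.63, and Stk3 gave 0.91 (SE 0.12, edgeR adjusted p = 0.0002), below the fold threshold.

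A published signature of 22 YAP and TAZ targets, which was defined in human tumours and includes the 4 readout genes, was examined next. In Apc against WT 19 were tested, 12 rose and 3 fell, with a median log2 fold change of 2.55; over all genes tested 12.2% were called higher and 14.1% lower, so the count that fell is near the background. Of the 12 that rose, 6 passed the low-level filter in WT alone as well and the other 6 through Apc alone. Igfbp3, Ccn2, Ccdc80, Tgfb2 and Rbms3, described next, belong to the latter, so they had to differ to be tested. The median includes them. Igfbp3, which binds insulin-like growth factors, went from 0.0119 to 0.121 FPKM in WT to 3.16 to 11.2 in Apc (log2 fold change 6.86, SE 0.56, edgeR adjusted p = 2.3e-06). Ccn2, the close relative of Ccn1, went from 0.0107 to 0.317 to 1.88 to 9.79 (log2 fold change 6.22, SE 0.62, edgeR adjusted p = 9.6e-06). Ccdc80, a matrix protein, had at most 3 counts in every WT library and was at least 97.1-fold higher in Apc. Tgfb2, a secreted growth factor, gave a log2 fold change of 5.78 (SE 0.42, edgeR adjusted p = 9.9e-07), and Rbms3, an RNA-binding protein, 5.49 (SE 0.46, edgeR adjusted p = 2.5e-06). Ptpn14, which passed the filter in both groups, belongs to this list too.

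The 3 signature genes that fell were Nt5e, an ecto-enzyme that makes adenosine (log2 fold change -2.88, SE 0.59, edgeR adjusted p = 0.0016), Gadd45a, a stress response gene (-1.32, SE 0.18, edgeR adjusted p = 0.00011), and Dock5, an activator of Rac (-1.05, SE 0.12, edgeR adjusted p = 2.2e-05). Their call depends on scale: limma called none of the list lower on log2(FPKM + 1) and 1 on log2(FPKM + 0.1). Of the 3, Nt5e passed the low-level filter through WT alone, so it had to differ to be tested. F3, tissue factor, was spread widely within Apc, from 1.40 to 11.98 FPKM, against 3.48 to 6.45 in WT, and did not pass (log2 fold change -0.37, SE 0.52, edgeR adjusted p = 0.573). In P-Rspo3 against WT none of 14 tested genes was called by edgeR, DESeq2 or limma, 1 had an unadjusted p under 0.05, and the median was -0.15. In Apc against P-Rspo3 12 of 19 tested rose and 3 fell (Nt5e, Gadd45a and Dock5). Over all genes tested there, 13.4% were called higher and 13.3% lower. Of the 12 that rose, 8 passed the low-level filter through Apc alone, so they had to differ to be tested. The same holds for Nt5e, which passed through P-Rspo3 alone.

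**Figure D5:**
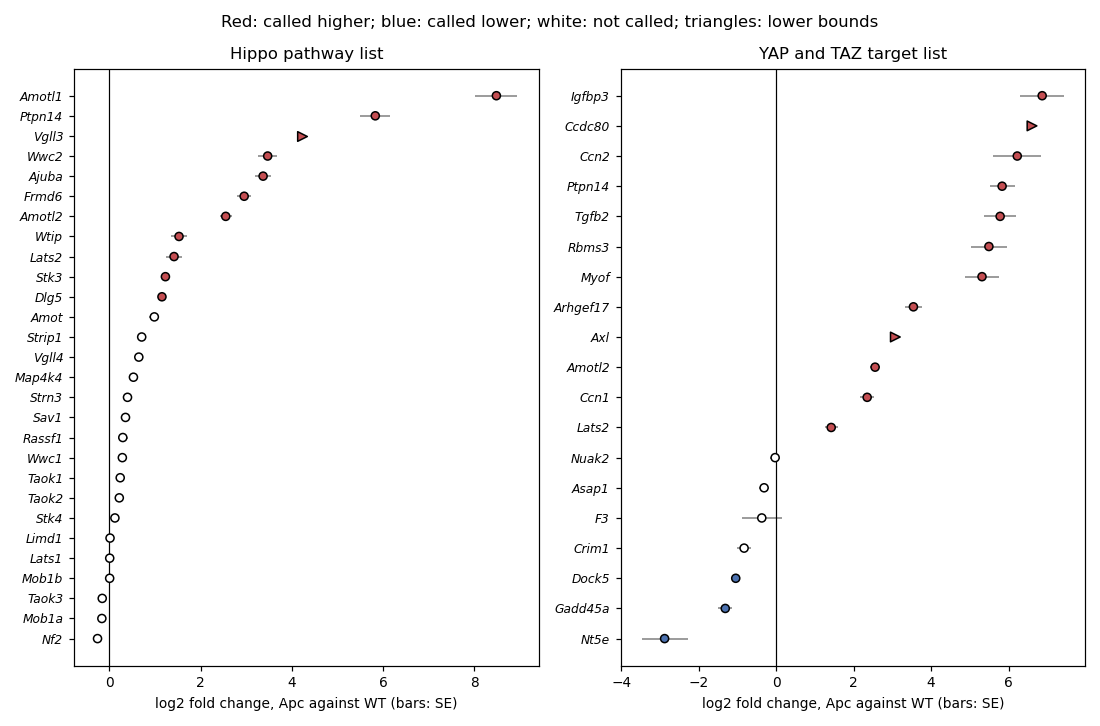
Log2 fold change (edgeR, Apc against WT) with standard error for the tested genes of the Hippo pathway list (28) and the YAP and TAZ target list (19); triangles are lower bounds for Vgll3, Ccdc80 and Axl, which had at most 3 counts in every WT library. In the pathway list 11 genes are called higher and none lower, and in the target list 12 are higher and 3 lower.

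Genes of the regenerating epithelium that have been linked to YAP were read as well. Of 10, all tested in Apc against WT, 8 rose and none fell, where 12.2% of all genes tested were called higher and 14.1% lower. The median log2 fold change was 6.82. In the lower direction 1, Areg, had an edgeR unadjusted p under 0.05, and DESeq2 gave the same counts. Of the 8, 2 passed the low-level filter through Apc alone, Anxa8 among them, so they had to differ to be tested. Anxa1, an annexin, went from 0.967 to 5.09 FPKM in WT to 161.9 to 293.0 in Apc, and Ly6a, the surface protein Sca-1, from 0.931 to 3.19 to 203.7 to 405.8. Msln, mesothelin, went from 0.0812 to 0.454 FPKM to 43.7 to 114.0. Il33, an alarmin cytokine, went from 0.171 to 0.226 FPKM to 12.4 to 30.9 (log2 fold change 6.76, SE 0.40, edgeR adjusted p = 2.4e-07), and Anxa8, a second annexin, gave a log2 fold change of 6.87 (SE 0.58, edgeR adjusted p = 2.8e-06). Clu, a marker of revival stem cells, was higher but uneven, from 15.01 to 69.3 FPKM in Apc against 0.611 to 2.68 in WT. The EGF receptor ligands Areg (log2 fold change -0.97, SE 0.32, edgeR adjusted p = 0.024) and Ereg (0.30, SE 1.101, edgeR adjusted p = 0.843) were not called. In P-Rspo3 against WT none of 8 tested was called by edgeR, DESeq2 or limma, and 3 had an unadjusted p under 0.05. In Apc against P-Rspo3 8 of 10 rose, where 13.4% of all genes tested were called higher and 13.3% lower. Of the 8, 4 passed the low-level filter through Apc alone. Areg fell (log2 fold change -1.104, SE 0.40, edgeR adjusted p = 0.041), a call that limma did not make on either FPKM scale.

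Several YAP targets are also expressed by stromal cells, so markers of other cell types were read in the same libraries. The summed FPKM of 10 mesenchymal and smooth muscle genes was 0.0880 to 0.224 in WT, 0.255 to 0.439 in Apc and 0.238 to 0.638 in P-Rspo3, and Dcn, Lum and Des were at 0 in all Apc libraries, with Col1a2 and Col3a1 at no more than 3 counts. For 6 endothelial genes the sum was 0.341 to 0.507 in WT and 2.41 to 3.54 in Apc, led by Cdh5 (217 to 372 counts in Apc and 0 in WT) and Tek (134 to 260 and 5 to 17); Cldn5 had 0 to 46 counts in Apc, Emcn at most 1 and Kdr 0, and Pecam1 fell. For 6 immune genes it was 1.005 to 2.595 in WT and 3.68 to 10.2 in Apc, nearly all of it Cd68, while Ptprc, Cd3e, Cd79a and Adgre1 had no more than 3 counts in any Apc library. Pdgfrb (18 to 39 counts in WT and 0 to 8 in Apc) and Csf1r (41 to 290 in WT and 1 to 20 in Apc) were called lower. Each list thus held genes at or near 0 in Apc beside others that rose there with the Hippo genes. Those that rose were Pdgfra (54 to 73 counts in Apc), Cdh5, Tek and Cd68. Their part in the result was not tested. In Apc against WT, Pdgfra, Cdh5 and Tek passed the low-level filter through Apc alone. Pdgfrb, Csf1r and Pecam1 passed it through WT alone. These marker genes therefore had to differ to be tested, whereas Cd68 passed in both groups.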

How the data were processed

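RNA sequencing of 15 organoid libraries was used, of which 13 were grouped by their labels: 5 WT, 4 Apc and 4 P-Rspo3. In the other two (LIPO and NAIVE_F) title and genotype conflict. Per the labels and the study's methods, STAR was used by the authors for alignment to GRCm38, and they deposited raw whole-number counts per gene from HTSeq 0.6.0 and FPKM from Cufflinks 2.2.1. Which annotation release and strand setting they counted with is not given in the sources used here. Yap1 shares exon bases with Gm20416 and Tead2 with Cd37 on the opposite strand, and Lats2 with Gm49361 on the same strand, so these counts are uncertain; Cd37 had at most 14 counts per library. Symbols came from the GENCODE annotation of GRCm38.

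Counts were tested with edgeR 4.0.16 (R 4.3.3; TMM, glmQLFit and glmQLFTest at defaults) in a separate fit per comparison. A gene entered the fit if its FPKM reached 0.1 or more in a number of libraries no smaller than the size of the smaller group. The standard error is the log2 fold change divided by the root of the F statistic. DESeq2 1.42.0 and limma 3.58.1 on log2(FPKM + 1) and log2(FPKM + 0.1) were alternatives, beside other filters, left-out libraries, other assignments of the conflicting libraries and the line as replicate block. Simulated counts in which 200 genes were changed were tested likewise. In the Apc against WT design 200 were recovered, with 3 false calls among 16749 genes. In P-Rspo3 against WT 199 were, with 1 false call among 15992 genes, and in Apc against P-Rspo3 198 were, with 2 false calls among 16456. The changed genes all moved by the same fold, above the threshold, and genes of low count were not among them. All genes were given the same spread between libraries. The simulation therefore checks the code and does not give the power of the tests on the real libraries.

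Libraries held 28902729 to 35528495 counts. A gene with at most 3 counts in a library was read as not detectable there, which covers counting error only, and a fold against such a group is given as a lower bound. Same-numbered WT and Apc libraries come from the same line by their titles, which pairs them; when group means were subtracted, their median correlation was 0.108 (-0.0171 to 0.223, 4 pairs), against -0.0408 over the other 12 pairs. No 2 libraries agreed within sampling noise. The members and gene lists were chosen with earlier results of these data known. Named list genes were up to 6 called genes per direction with the largest fold change, and the kinase cassette; F3, Clu, Areg, Ereg and the named marker genes were chosen after their values were seen. A gene that the rule would name is not reported here. Promoter sequences are from RefSeq (GRCm38.p6).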

Additional observations from a re-analysis of the deposited data

Results flagged for a closer look

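Among 28 groups of a member's FPKM that were examined for a single library far from the others, 4 were flagged; chance flags about 1 in 20 groups. Yap1 was at 27.2 FPKM in the WT library of line 6 against 21.5 to 23.0 in the other WT libraries, still below every Apc library. Tead4 was at 0.649 FPKM in the P-Rspo3 library 15d against 0.274 to 0.304 in 4d, M and F. Amotl2 was at 14.96 FPKM in the Apc library of line 1 against 11.9 to 12.3 in lines 2, 5 and 6. Lats2 was at 2.62 FPKM in the WT library of line 5 against 0.816 to 0.977 in the other WT libraries, although its 177 counts there stood closer to the 118 to 152 of the others.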

How the results depend on the processing

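In Apc against WT, 6 to 8 members were called over all alternatives, and in Apc against P-Rspo3 7 or 8. With the line as replicate block, 4219 genes were called in Apc against WT and 7 members, and the block changed no member's call. Genes called in Apc against WT were 4412, and 2550 with limma on log2(FPKM + 1), 2834 at an FPKM of at least 1 and 9892 by adjusted p alone; in Apc against P-Rspo3 they were 4392, and 2554, 2797 and 9276. In P-Rspo3 against WT 1 gene was called, and 228 with DESeq2, 7 and 3 with limma on log2(FPKM + 1) and log2(FPKM + 0.1), 13 without a filter, 74 with all 3 groups in 1 fit, 6 with the newer form of the test, 0 with NAIVE_F in WT and 266 without the naive library, which leaves WT of Apc flox lines only; leaving out each library in turn gave 1 to 266. Members called there were 1 with DESeq2 and 1 with all 3 groups in 1 fit, and 0 to 1 with each library left out. The log2 fold change of Tead4 there turned to 0.003 and 0.023 with limma on log2(FPKM + 1) and log2(FPKM + 0.1), 0.009 with the newer form, 0.178 with NAIVE_F in WT, and ran from -0.413 to 0.244 with each library left out. The FPKM scale raised the all-gene median of log2 fold changes in Apc against WT to 0.17 and 0.28, and the share of calls that were higher from 46.4% to 55.6% and 59.9%; in Apc against P-Rspo3 it raised the median to 0.16 and 0.25, and the share from 50.3% to 56.0% and 61.2%. Yap1 would be called in both by adjusted p alone. Ankrd1 had no value under most settings because of its low level, and Wwtr1 had none in P-Rspo3 against WT at an FPKM of at least 1. The cause of these differences was not tested. At these depths Ankrd1, with 0 to 50 counts, and Wwtr1 in P-Rspo3, with 1 to 35, rest on few counts.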

Other observations

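The 2 libraries with conflicting labels gave these values, which enter no group. LIPO, titled differently from its dox-naive genotype label, had 2586 counts of Yap1, 23 of Wwtr1 and 0 FPKM of Ankrd1. NAIVE_F, titled naive but labelled as P-Rspo3, had 3037 counts of Yap1, 45 of Wwtr1 and 0 FPKM of Ankrd1. Rspo3 had 0 counts in LIPO, where WT had at most 1, and 729 in NAIVE_F, inside the P-Rspo3 range of 539 to 1079. These counts go with the genotype labels, but no group was assigned from them. The setting with NAIVE_F in WT thus placed a library with 729 Rspo3 counts in WT. The Wwtr1 counts of both libraries lay below the WT range of 69 to 147. That of LIPO lay inside the P-Rspo3 range of 1 to 35, and that of NAIVE_F lay above it.

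Genes with the pattern most like that of Yap1 over the 13 grouped libraries, by Pearson's r of log2(CPM + 1), were Slc7a6 (r = 0.991), Mcm7 (0.990) and Sfr1 (0.989). For Ankrd1 they were Fbxo16 (0.991), Capsl (0.988) and Loxl4 (0.987), where sparse counts and 9 libraries at 0 make a high r easy to reach. All 13 libraries share the contrast of Apc with the rest, so these values describe likeness only.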
